A study of Mus musculus with 27 samples.

Results

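The genes described here are Toll-like receptor genes of the mouse and Cd14: Tlr1, Tlr2, Tlr3, Tlr4, Tlr6, Tlr7, Tlr8, Tlr9, Tlr13 and Cd14, taken by their names. The Toll-like receptor genes Tlr5, Tlr11 and Tlr12 are not members and are described with the other genes of the pathway. The count table held 55487 genes, all 10 members among them, and all 10 also passed the filter on low counts (10 counts or more in 4 or more libraries), as did 20271 genes in all. Gene expression was measured by bulk RNA-seq in the cortex and hippocampus of the hemisphere opposite to the infusion, in male wild-type C57Bl/6J mice, aged 8 weeks at the start of treatment. An osmotic pump delivered its content into the right lateral ventricle for 14 days at 0.25 μl/h. The groups were PBS (5 cortices and 5 hippocampi), a human control IgG (labelled mIgG, 5 cortices and 4 hippocampi) and human autoantibodies against the neuronal surface protein IgLON5 (labelled IgLON5, here α-IgLON5, 4 cortices and 4 hippocampi). The labels describe the control IgG as monoclonal and not reactive, whereas the study's methods describe IgG from healthy control serum, and which of these was infused cannot be told from the files. The methods give the α-IgLON5 preparation as one purified from a single patient's plasma. The 27 libraries came from 14 mice, of which 13 gave both tissues, if the number in each title is the number of the mouse.

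Toll-like receptors are pattern recognition receptors of innate immune cells. Tlr2 pairs with Tlr1 or Tlr6 at the cell surface and binds bacterial lipopeptides, and Tlr4 recognizes lipopolysaccharide with the help of Cd14, a co-receptor that also serves Tlr2. Tlr3, Tlr7, Tlr8, Tlr9 and Tlr13 sit in endosomes and sense nucleic acids, and most of the receptors signal through the adaptor Myd88 to NF-κB and interferon regulatory factors. In the brain, these genes are expressed mainly by microglia and macrophages, and Tlr3 also by astrocytes.

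Total counts ranged from 19385642 to 58550621 per library. In the hippocampus, depth differed between the groups compared. The α-IgLON5 libraries held 19428512 to 32776892 counts and the control IgG libraries 39479753 to 52212204, without overlap. The labels give neurons as the cell type, but the libraries hold RNA of whole tissue: the summed level of 5 neuronal markers was 4619 to 7061 CPM (counts scaled to a common library size), that of 5 astrocyte markers 3487 to 5513 CPM, that of 7 microglia markers 169 to 357 CPM and that of 4 endothelial markers 86.7 to 135 CPM. In such bulk tissue, a change in the number of cells of a type and a change in RNA per cell cannot be told apart. The α-IgLON5 mice carry the numbers 8, 9, 16 and 17, and the numbers of the control mice run from 10 to 75.

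All members are protein-coding genes, and positions are on GRCm38 (GENCODE M21). Tlr1 (chr5:64924679-64933563) and Tlr6 (chr5:64952031-64960097) are neighbours on the minus strand of chromosome 5, and Tlr8 (chrX:167242696-167264329) and Tlr7 (chrX:167304929-167330558) are neighbours on the minus strand of chromosome X. Tlr2 lies at chr3:83836272-83841767, Tlr3 at chr8:45395665-45411080 and Cd14 at chr18:36725067-36726798, all on the minus strand. Tlr4 (chr4:66827584-66930284), Tlr9 (chr9:106222598-106226883) and Tlr13 (chrX:106143204-106160493) lie on the plus strand. The antisense gene Gm45542 overlaps Tlr3, and because the strand setting of the counting is not given in the sources used here, Tlr3 counts may include reads of that gene.

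For Tlr2, Tlr1, Tlr6, Tlr9 and Tlr13, the stretch upstream of the gene is shown 5′ to 3′ on the strand of the gene, because these genes rose together in both tissues against control IgG. Cd14 rose in both tissues as well, but its upstream stretch was not searched and is not shown. The sequences are the RefSeq promoter windows of GRCm38.p6 without bases that lie in an annotated exon. Capitals mark matches to 4 motifs searched on both strands: the NF-κB site kappa B, GAGGAA (the core bound by the myeloid factor PU.1), an interferon response element (GAAA repeated after 2 free bases) and TGANTCA (AP-1).

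Tlr2 (chr3:83841768-83841858, minus strand): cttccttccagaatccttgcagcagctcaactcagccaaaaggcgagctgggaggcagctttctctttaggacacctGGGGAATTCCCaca
Tlr1 (chr5:64933564-64933808, minus strand): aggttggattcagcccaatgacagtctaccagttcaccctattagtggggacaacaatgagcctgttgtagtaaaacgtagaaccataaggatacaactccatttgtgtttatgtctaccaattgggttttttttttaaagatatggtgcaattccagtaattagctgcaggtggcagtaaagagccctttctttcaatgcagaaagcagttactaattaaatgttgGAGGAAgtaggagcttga
Tlr6 (chr5:64959167-64959416, minus strand, a start within the annotated gene): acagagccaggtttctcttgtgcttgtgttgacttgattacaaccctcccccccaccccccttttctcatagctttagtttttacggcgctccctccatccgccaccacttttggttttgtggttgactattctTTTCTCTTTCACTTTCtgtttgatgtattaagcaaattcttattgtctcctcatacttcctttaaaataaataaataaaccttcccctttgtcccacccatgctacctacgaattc
Tlr9 (chr9:106222348-106222597, plus strand): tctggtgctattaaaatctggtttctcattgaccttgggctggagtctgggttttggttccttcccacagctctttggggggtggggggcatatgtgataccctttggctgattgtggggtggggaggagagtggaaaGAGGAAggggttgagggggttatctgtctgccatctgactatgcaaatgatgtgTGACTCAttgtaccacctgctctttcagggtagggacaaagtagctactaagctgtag
Tlr13 (chrX:106143025-106143203, plus strand): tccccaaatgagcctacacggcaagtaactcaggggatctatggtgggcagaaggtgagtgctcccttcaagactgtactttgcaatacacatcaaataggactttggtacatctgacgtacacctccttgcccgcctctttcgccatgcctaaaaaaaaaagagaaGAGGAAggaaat

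The Tlr2 stretch held 2 overlapping kappa B matches, whose first bases lie 173 and 172 bases before the RefSeq start. The stretches of Tlr1, Tlr9 and Tlr13 each held GAGGAA, at 23, 112 and 83 bases before the start, and that of Tlr9 also held TGACTCA at 58 bases before it. The Tlr6 stretch held 2 overlapping interferon response matches on the other strand, at 116 and 110 bases before the start, and the stretch before another RefSeq start of Tlr6 held none. The windows of members that were not called against control IgG held matches too: that of Tlr3 a kappa B match at 211 bases and that of Tlr8 a GAGGAA match on the other strand at 77 bases before the start. Among 32851 promoter windows of 250 bases, 7.25% held a kappa B match, 23.3% GAGGAA, 2.98% the interferon response element and 6.75% TGANTCA, and a match is a description of the letters only.

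The first question was how strongly each receptor gene is expressed in mice infused with PBS alone. Levels of different genes are compared here as CPM per kilobase of exon. In PBS hippocampi, Tlr3 was the most abundant member at 3.20 ± 0.256 CPM per kb (SD, n = 5), and its libraries did not overlap with those of any other member. Cd14 followed at 1.24 ± 0.342, then Tlr7 at 0.888 ± 0.185, Tlr9 at 0.593 ± 0.0785, Tlr13 at 0.473 ± 0.0437, Tlr4 at 0.399 ± 0.0541 and Tlr2 at 0.361 ± 0.0597 CPM per kb. Each neighbour in this order from Cd14 to Tlr2 overlapped with the next. Tlr6 (0.177 ± 0.0414) and Tlr1 (0.172 ± 0.0327) overlapped with each other and lay below Tlr2, and Tlr8 was lowest at 0.0309 ± 0.0101 CPM per kb. In PBS cortices the order of the means was the same, from Tlr3 at 2.97 ± 0.353 to Tlr8 at 0.0682 ± 0.0306 CPM per kb (n = 5).

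The cortex and hippocampus of PBS mice were compared next. None of the 10 members passed the test (adjusted p under 0.05, Benjamini-Hochberg over all 20271 genes), whereas 14.1% of all genes were higher and 12.7% lower in the cortex. At an unadjusted p under 0.05 it was 1 member (Tlr9), and DESeq2 called none. The differences of 9 members lay between -0.29 (Tlr1) and 0.41 (Tlr9) on the log2 scale, and that of Tlr8 was 1.08 with a standard error (SE) of 0.739. Tlr9, the sensor of unmethylated CpG DNA, came nearest to a call, with 2.32 to 2.96 CPM in the cortex and 1.72 to 2.46 CPM in the hippocampus (log2 difference 0.41, SE 0.168, adjusted p = 0.0758). With the mouse as a block, so that both tissues were compared within each mouse, Tlr9 passed the test (log2 difference 0.42, adjusted p = 0.0264).

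**Figure D1:**
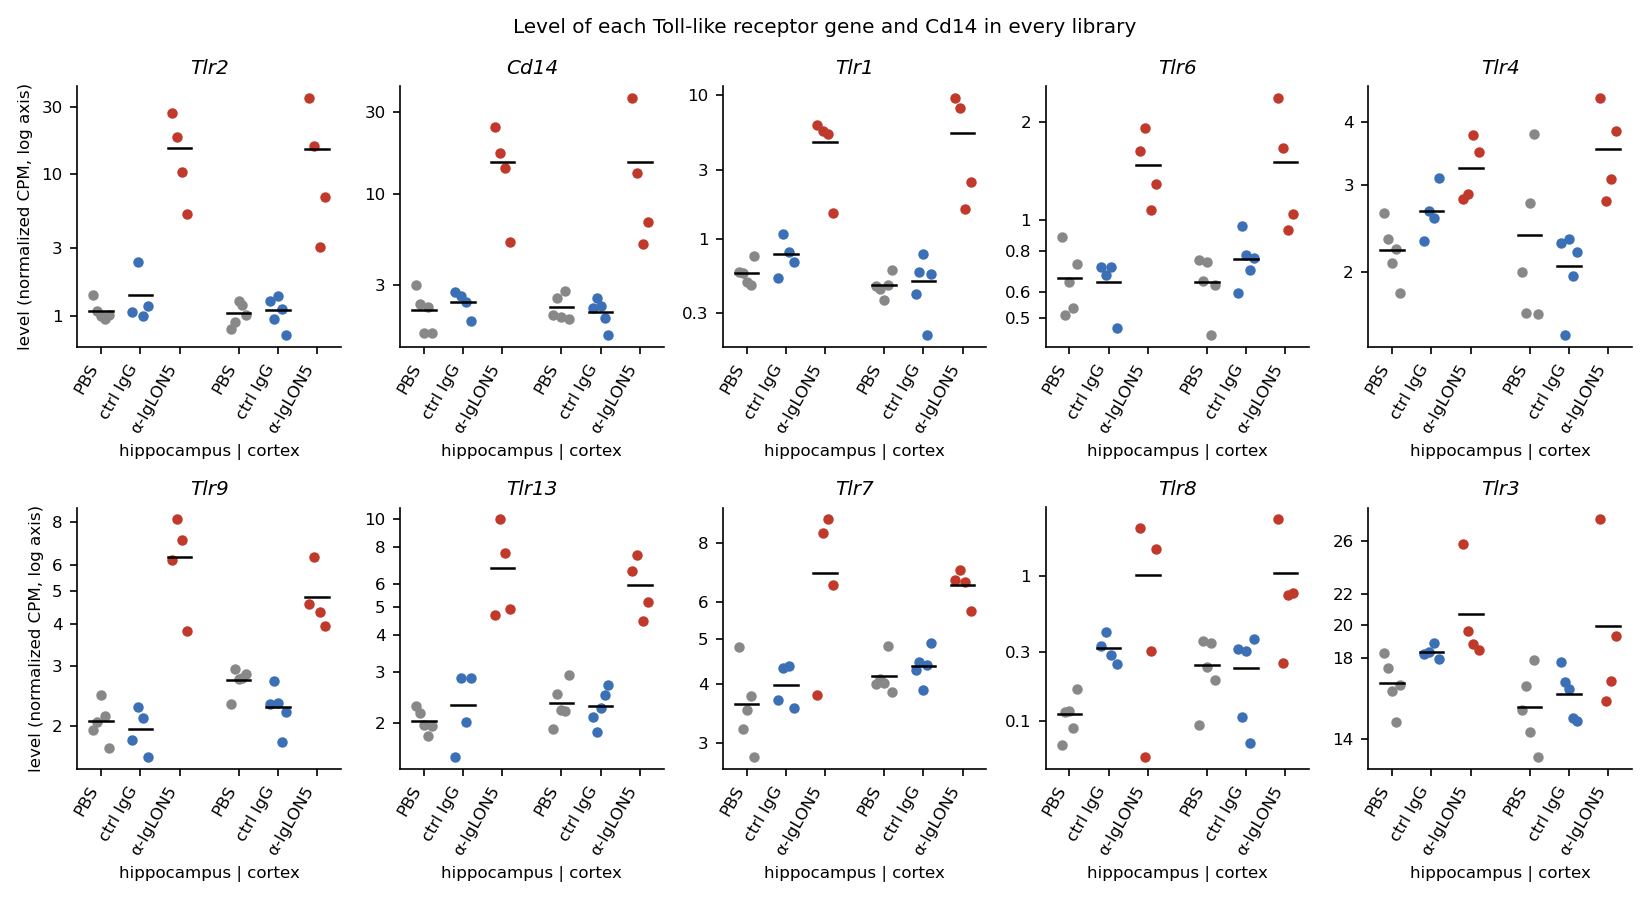
Level of each member in every library, in normalized CPM on a log axis that differs between panels; points are libraries, lines are group means, grey is PBS, blue control IgG and red α-IgLON5. Tlr2, Cd14 and Tlr1 separate the α-IgLON5 libraries from both control groups in both tissues, whereas the Tlr3 and Tlr4 panels show overlap in the hippocampus between α-IgLON5 and control IgG.

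The main question was whether the receptor genes differ between α-IgLON5 and control IgG. In the hippocampus, 7 of the 10 members rose and none fell: Tlr2, Cd14, Tlr1, Tlr9, Tlr13, Tlr6 and Tlr7. Over all genes tested, 4.23% were called higher and 2.78% lower. For 6 of the 7, all but Tlr7, the fold change was above 2, which makes them DEGs by the study's fold threshold (2.21% of all genes were DEGs that rose), and these same 6 had no overlap between groups (6.68% of all genes). The median log2 fold change was 1.61 for the members and 0.0012 for all genes. Tlr2, Cd14 and Tlr1 had the highest fold changes of the called members, followed by the endosomal receptors Tlr9 and Tlr13 and then Tlr6 and Tlr7, and Tlr3, Tlr4 and Tlr8 did not pass the test.

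Tlr2 was measured at 27.2, 18.2, 10.4 and 5.24 CPM in the hippocampi of α-IgLON5 mice 8, 9, 16 and 17. In control IgG hippocampi it was at 1.06, 2.41, 0.999 and 1.18 CPM (mice 10, 15, 37 and 75), and in PBS hippocampi between 0.950 and 1.40 CPM. Every α-IgLON5 hippocampus lay above every control, and the group means were 15.3 ± 9.57 and 1.41 ± 0.667 CPM (SD, n = 4 each), a 10.6-fold difference (log2 fold change 3.41, SE 0.521, adjusted p = 0.000113). Tlr1, which forms the receptor for triacylated lipopeptides with Tlr2, was at 6.25, 5.63, 5.39 and 1.52 CPM in α-IgLON5 mice 8, 9, 16 and 17 and at 0.531, 1.07, 0.809 and 0.688 CPM in the control IgG mice. The groups did not overlap, although mouse 17 was near the highest control (5.95-fold, log2 fold change 2.57, SE 0.451, adjusted p = 0.000604).

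Tlr6, the other partner of Tlr2, moved less than Tlr1. It was at 1.62, 1.92, 1.07 and 1.29 CPM in α-IgLON5 hippocampi and at 0.467 to 0.715 CPM in control IgG hippocampi (2.24-fold, log2 fold change 1.16, SE 0.262, adjusted p = 0.00679). In each α-IgLON5 hippocampus, Tlr1 exceeded Tlr6 per kilobase, with a ratio of 1.31 to 5.60, whereas the ratio was 0.827 to 1.76 in control IgG hippocampi. Both ranges overlap, and this ratio, like the others below, was chosen after the values were seen and was not tested.

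Cd14 and Tlr4, which act together on lipopolysaccharide, parted from each other. Cd14 was at 24.5, 17.4, 14.2 and 5.33 CPM in the hippocampi of α-IgLON5 mice 8, 9, 16 and 17 and at 1.84 to 2.74 CPM with control IgG, so that each α-IgLON5 hippocampus exceeded all controls (6.36-fold, log2 fold change 2.67, SE 0.441, adjusted p = 0.000295). Tlr4 was at 2.81, 2.87, 3.77 and 3.50 CPM with α-IgLON5 and at 2.31, 2.65, 2.57 and 3.09 CPM with control IgG, and these ranges overlapped (log2 fold change 0.30, SE 0.210, adjusted p = 0.440). The ratio of Cd14 to Tlr4 per kilobase was 4.89 to 28 with α-IgLON5 and 1.91 to 3.80 with control IgG, and that of Tlr2 to Tlr4 was 2.77 to 17.9 and 0.702 to 1.67.

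Among the endosomal receptors, Tlr9 gave the clearest separation. It was at 6.20, 8.17, 7.08 and 3.81 CPM in α-IgLON5 hippocampi and at 1.82, 2.28, 2.12 and 1.62 CPM in control IgG hippocampi (3.20-fold, log2 fold change 1.68, SE 0.185, adjusted p = 1.53e-06). Tlr13, which recognizes bacterial ribosomal RNA, was at 4.68, 9.97, 7.63 and 4.90 CPM against 1.53 to 2.86 CPM (log2 fold change 1.54, SE 0.219, adjusted p = 4.07e-05). In contrast to Tlr2 and Cd14, both genes were highest in mouse 9.

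The receptors of single-stranded RNA were more variable. Tlr7 was at 3.79, 8.39, 8.98 and 6.50 CPM in mice 8, 9, 16 and 17 and at 3.56 to 4.38 CPM with control IgG, so that mouse 8 lay within the control range (log2 fold change 0.80, SE 0.177, adjusted p = 0.00626). This call was lost when only the 2 groups compared were fitted (adjusted p = 0.124). Tlr8 was at 2.17, 0.0563, 0.306 and 1.55 CPM, from 1 to 54 counts, against 0.246 to 0.414 CPM. Mice 8 and 17 were high and mouse 9 was below all controls, and the test was not passed (log2 fold change 1.67, SE 0.612, adjusted p = 0.0981) unless mouse 9 (adjusted p = 0.0470) or 16 (0.0366) was left out. Without mouse 8, the log2 fold change was 1.1 (adjusted p = 0.380). Tlr3, the sensor of double-stranded RNA, was at 25.7, 19.6, 18.8 and 18.5 CPM against 17.9 to 18.9 CPM, with only mouse 8 well above the controls (log2 fold change 0.17, SE 0.131, adjusted p = 0.494).

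Against PBS, 8 members rose in the hippocampus, where 3.81% of all genes were called higher and 0.474% lower. They were the 7 genes above and Tlr8, for which the PBS hippocampi held 2 to 7 counts (log2 fold change 3.13, SE 0.668, adjusted p = 0.00356). Tlr8 and Tlr7 overlapped with the PBS range in spite of their calls, and for Tlr8 mouse 9, with 1 count, lay below every PBS hippocampus. The call of Tlr7 was again lost when only the 2 groups compared were fitted (adjusted p = 0.0563). Tlr2 was 13.9-fold, Tlr1 7.97-fold and Cd14 7.15-fold higher than in PBS hippocampi. Tlr4 (log2 fold change 0.56, adjusted p = 0.136) and Tlr3 (0.31, adjusted p = 0.207) did not pass the test, although for both genes each α-IgLON5 hippocampus lay above each PBS hippocampus, as it did for 4.49% of all genes. The comparison shares its α-IgLON5 libraries with that against control IgG.

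In the cortex, 7 of the 10 members rose with α-IgLON5 against control IgG and none fell, where 3.01% of all genes were called higher and 0.449% lower. These were Tlr2, Tlr1, Cd14, Tlr13, Tlr9, Tlr6 and Tlr4, and the first 5 were DEGs (2.14% of all genes were DEGs that rose). Tlr2 was at 34.5, 15.9, 3.07 and 6.92 CPM in mice 8, 9, 16 and 17 and at 0.732 to 1.39 CPM in the 5 control IgG cortices (13.5-fold, log2 fold change 3.75, SE 0.502, adjusted p = 3.23e-05). Cd14 was at 36.1, 13.2, 5.19 and 6.94 CPM against 1.53 to 2.50 CPM (7.38-fold, log2 fold change 2.88, SE 0.419, adjusted p = 8.54e-05). For both genes, mouse 8 was highest and mouse 16 lowest, and all 4 mice were above all controls, as in 3.68% of all genes. Without mouse 8, the fold change was 7.67 for Tlr2 (adjusted p = 0.000220) and 4.05 for Cd14 (adjusted p = 0.000555).

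Tlr1 was at 9.62, 8.19, 1.62 and 2.47 CPM in these cortices and at 0.211 to 0.777 CPM with control IgG (10.4-fold, log2 fold change 3.38, SE 0.449, adjusted p = 3.14e-05). The ratio of Tlr1 to Tlr6 per kilobase was 1.94 to 5.50 with α-IgLON5 and 0.334 to 1.11 with control IgG, which did not overlap in this tissue. Tlr9 (3.94 to 6.31 against 1.79 to 2.72 CPM, log2 fold change 1.08, adjusted p = 0.000269) and Tlr13 (4.48 to 7.51 against 1.86 to 2.69 CPM, log2 fold change 1.37, adjusted p = 0.000126) were again separated from the controls.

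The cortical calls of Tlr4 and Tlr6 depended on single libraries. Tlr4 was at 4.48, 2.78, 3.07 and 3.84 CPM in mice 8, 9, 16 and 17 against 1.49 to 2.33 CPM (log2 fold change 0.78, SE 0.200, adjusted p = 0.0251), and the call was lost without α-IgLON5 mouse 8 (adjusted p = 0.168) or 17 (0.0718) and without control IgG mouse 11 (0.0759) or 37 (0.0653). Tlr6 was at 2.36, 1.66, 0.929 and 1.04 CPM against 0.595 to 0.958 CPM (log2 fold change 0.98, SE 0.246, adjusted p = 0.0209), and its call was lost without α-IgLON5 mouse 8 (0.221) or 9 (0.0588) and without control IgG mouse 10 (0.0760) or 37 (0.0551). Both calls were also lost when only the 2 groups compared were fitted (adjusted p = 0.0520 for Tlr4 and 0.133 for Tlr6). Cortical Tlr4 also failed against PBS (log2 fold change 0.59, adjusted p = 0.157), where PBS mouse 38 had 3.78 CPM, and passed without that mouse (0.82, adjusted p = 0.00590).

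Tlr7 and Tlr8 lay close to the threshold in the cortex. Tlr7 was at 6.66, 7.0, 6.60 and 5.72 CPM in mice 8, 9, 16 and 17, each above the control IgG range of 3.89 to 4.89 CPM, but missed the threshold (log2 fold change 0.57, SE 0.167, adjusted p = 0.0595), and it passed against PBS (0.64, adjusted p = 0.0278). That call was lost without any one of PBS mice 14, 32, 33 and 74 or α-IgLON5 mice 8, 9 and 16 (adjusted p from 0.0513 to 0.0978). Tlr8 was at 2.47, 0.253, 0.738 and 0.771 CPM against 0.0702 to 0.366 CPM, with mouse 9 inside the control range (log2 fold change 2.11, SE 0.606, adjusted p = 0.0518), and the call depended on the libraries. It was made without α-IgLON5 mouse 9 (adjusted p = 0.0190) or 16 (0.0397), whereas without mouse 8 the log2 fold change was 1.31 (adjusted p = 0.398). Tlr3 was at 27.8, 15.7, 16.8 and 19.3 CPM against 14.8 to 17.8 CPM, and again mouse 8 was highest (log2 fold change 0.31, adjusted p = 0.212). Against PBS, 7 members rose in the cortex (Tlr1, Tlr2, Tlr6, Tlr7, Tlr9, Tlr13 and Cd14), where 2.97% of all genes were called higher and 0.0740% lower. Tlr3 (log2 fold change 0.37, adjusted p = 0.159) and Tlr8 (2.11, adjusted p = 0.0527) did not pass against PBS, but passed without α-IgLON5 mouse 9 (adjusted p = 0.0395 and 0.0162), as did Tlr8 without mouse 16 (0.0432), without the count filter (0.0328) or with DESeq2 (0.0278). With other libraries left out, the values against PBS were weaker. They fell as low as 1.31 for Tlr8 (adjusted p up to 0.650) and 0.17 for Tlr3 (adjusted p up to 0.920). The call of Tlr6 against PBS was lost when only the 2 groups compared were fitted (adjusted p = 0.0750).

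**Figure D2:**
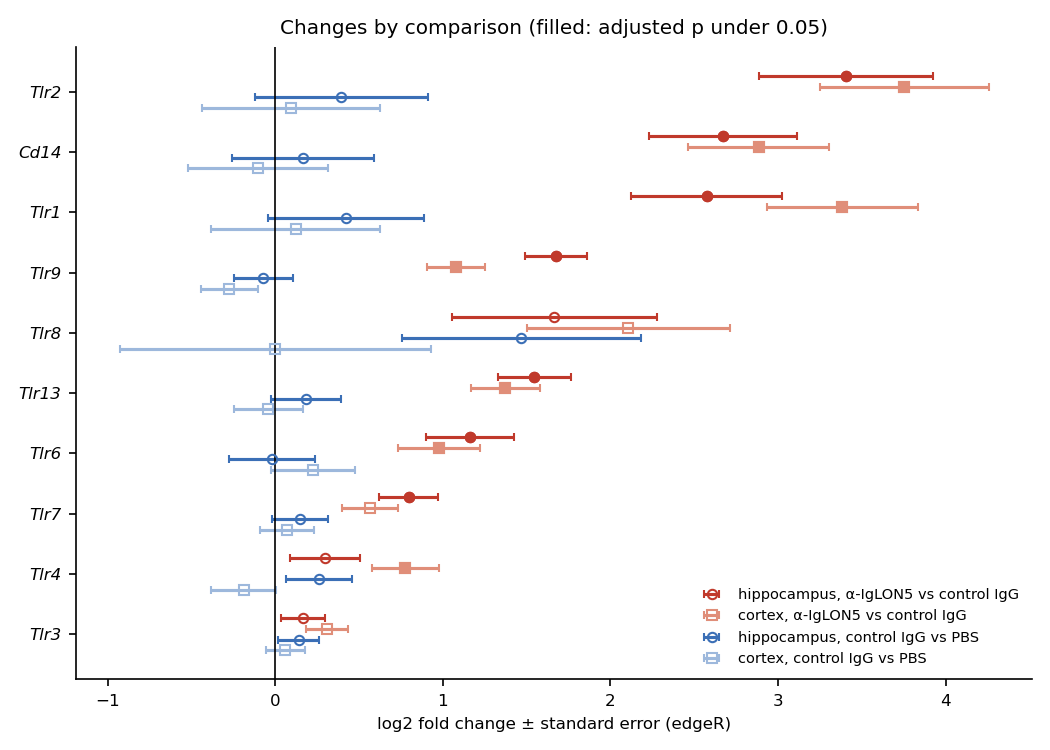
Log2 fold change of each member with its standard error (edgeR) in 4 comparisons; red points compare α-IgLON5 with control IgG, blue points control IgG with PBS, circles are hippocampus, squares are cortex, and filled symbols have an adjusted p under 0.05. Tlr2, Cd14 and Tlr1 lie between 2.57 and 3.75 in the red comparisons, and no blue symbol is filled.

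Control IgG was compared with PBS to see what an infused antibody does on its own. By edgeR's test, 0 of the 10 members were called in either tissue, DESeq2 also called none, and no member had an unadjusted p under 0.05. Over all genes, 0.133% were called higher and 0.0592% lower in the hippocampus and 0 in the cortex, while 14.0% and 8.14% had an unadjusted p under 0.05. The log2 differences of the members ran from -0.07 (Tlr9) to 0.42 (Tlr1) in the hippocampus, Tlr8 aside, and from -0.27 (Tlr9) to 0.22 (Tlr6) in the cortex. Hippocampal Tlr8 had 0.246 to 0.414 CPM (10 to 22 counts) with control IgG and 0.0682 to 0.165 CPM (2 to 7 counts) with PBS, without overlap (as for 1.87% of all genes), but the difference did not pass the test (log2 fold change 1.47, SE 0.714, unadjusted p = 0.0501, adjusted p = 0.359).

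Whether the change with α-IgLON5 differed between the tissues was tested as an interaction. No member was called against control IgG or against PBS, by edgeR's test or by DESeq2, and 1 (Tlr9) had an unadjusted p under 0.05 in each. Over all genes, 0% against control IgG and 0.00493% against PBS were called with a greater change in the hippocampus and 0% with a greater change in the cortex, while 10.6% and 3.32% had an unadjusted p under 0.05. Tlr9 had the smallest p of the members, with a change that was 0.60 greater in the hippocampus on the log2 scale against control IgG (SE 0.253, unadjusted p = 0.0264, adjusted p = 0.387) and 0.80 greater against PBS (SE 0.245, unadjusted p = 0.00308, adjusted p = 1.00). For Tlr2 the difference was -0.35 (SE 0.699) and for Cd14 -0.21 (SE 0.592), so differences of this order in either direction were within the error.

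The α-IgLON5 mice differed among themselves, and the size of the difference depended on the gene. For Tlr8, which was not called against control IgG, the ratio of the highest to the lowest was 38.4 in the hippocampus and 9.79 in the cortex. The ratio of the highest to the lowest α-IgLON5 hippocampus was 5.18 for Tlr2, 4.60 for Cd14 and 4.12 for Tlr1, and in the cortex it was 11.2, 6.96 and 5.94. For Tlr9 the ratio was 2.14 and 1.60, for Tlr4 it was 1.34 and 1.61, and for Tlr3 1.39 and 1.77. Mouse 8 had the highest level of 7 members in the cortex and of 5 in the hippocampus, but in the hippocampus it was also the lowest for 3 (Tlr4, Tlr7 and Tlr13). Mouse 16 had the lowest cortical level of 5 members and mouse 17 the lowest hippocampal level of 5. For Tlr2, Cd14 and Tlr1, mice 8 and 9 therefore ranked first in both tissues, and mice 16 and 17 changed places between the tissues.

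**Figure D3:**
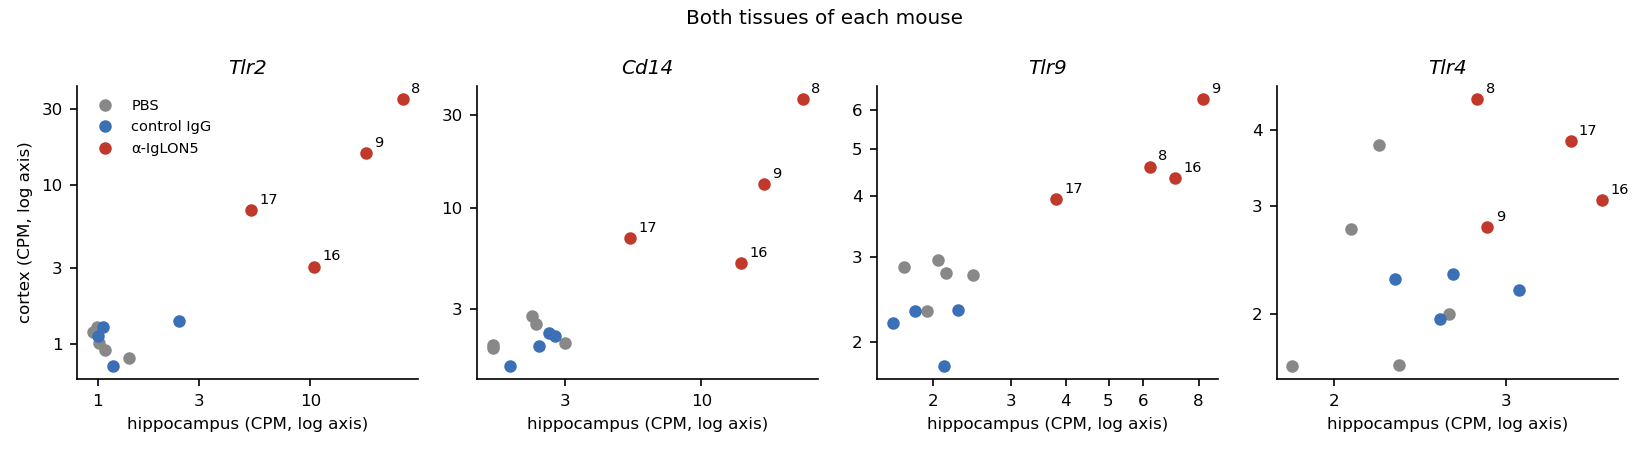
Cortex against hippocampus level of Tlr2, Cd14, Tlr9 and Tlr4 in the 13 mice with both tissues, in CPM on log axes; grey is PBS, blue control IgG, red α-IgLON5, and the numbers are those of the α-IgLON5 mice. For Tlr2, Cd14 and Tlr9 the 4 α-IgLON5 mice lie apart from all others in both tissues, with mouse 8 highest for Tlr2 and Cd14 and mouse 9 highest for Tlr9.

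Markers of myeloid cells moved with the receptor genes. The myeloid index, the mean log2 CPM of Aif1, Csf1r, Itgam, Spi1 and Tyrobp, was 4.20 to 5.36 in α-IgLON5 hippocampi and 3.33 to 3.64 in control IgG hippocampi, and 4.09 to 4.95 and 3.29 to 3.77 in the cortices. All 5 index genes rose in the hippocampus and 4 in the cortex. Each member was therefore also measured relative to this index, which asks whether it changed more or less than these myeloid genes. Since the index rose, a gene with no change per library falls on this scale, and the median of all genes was -1.28 in the hippocampus and -0.97 in the cortex.

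Relative to the index, Tlr2 (log2 fold change 2.08, SE 0.381, adjusted p = 6.97e-06), Cd14 (1.30, SE 0.326, adjusted p = 0.000418) and Tlr1 (1.21, SE 0.334, adjusted p = 0.00116) rose in the hippocampus, where 1.01% of all genes were called higher on this scale. Tlr3 (-1.11, SE 0.212), Tlr4 (-0.97, SE 0.289) and Tlr7 (-0.52, SE 0.231, adjusted p = 0.0332) fell on it, as did 90.7% of all genes. Tlr6 (-0.14, SE 0.266), Tlr8 (0.57, SE 0.594), Tlr9 (0.32, SE 0.207) and Tlr13 (0.18, SE 0.222) did not pass the test. In the cortex, Tlr2 (2.55, SE 0.366), Tlr1 (2.22, SE 0.331) and Cd14 (1.71, SE 0.310) rose relative to the index (1.53% of all genes) and Tlr3 (-0.69, SE 0.202) fell (82.1% of all genes). The other 6 members did not pass the test there, with values from -0.42 (Tlr7) to 1.08 (Tlr8).

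Some values on this scale rested on single libraries or on the index. Without α-IgLON5 mouse 8, the cortical log2 fold changes fell to 1.86 for Tlr2 (adjusted p = 0.000465) and 1.02 for Cd14 (adjusted p = 0.00110), which remained called. Hippocampal Tlr7 was no longer called without α-IgLON5 mouse 8 (adjusted p = 0.168) or 9 (0.0926) or without control IgG mouse 37 (0.0954). In the cortex, Tlr7 was called lower without α-IgLON5 mouse 16 (adjusted p = 0.0201), and Tlr8 was called higher without α-IgLON5 mouse 9 (0.0234). With 7 microglia genes as the index, 5 members were called higher and none lower in the hippocampus (1.98% and 6.33% of all genes), and 8 higher and none lower in the cortex (2.71% and 0.0345% of all genes). In the hippocampus, Tlr4 (0.039) and Tlr3 (-0.031) were then near 0, Tlr6 (0.92) and Tlr7 (0.47) turned positive without a call, and Tlr9 (1.41, adjusted p = 7.50e-05) and Tlr13 (1.24, adjusted p = 0.000589) were called. In the cortex, Tlr4 (0.86, adjusted p = 0.0488), Tlr6 (1.11, adjusted p = 0.0284) and Tlr7 (0.64, adjusted p = 0.0189) turned from negative values to calls, Tlr9 (1.16, adjusted p = 0.000252) and Tlr13 (1.46, adjusted p = 2.29e-05) were called, and Tlr3 (0.42) turned positive without a call. The calls of hippocampal Tlr7 and Tlr9 and cortical Tlr13 also changed with the genes that made up the myeloid index itself.

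**Figure D4:**
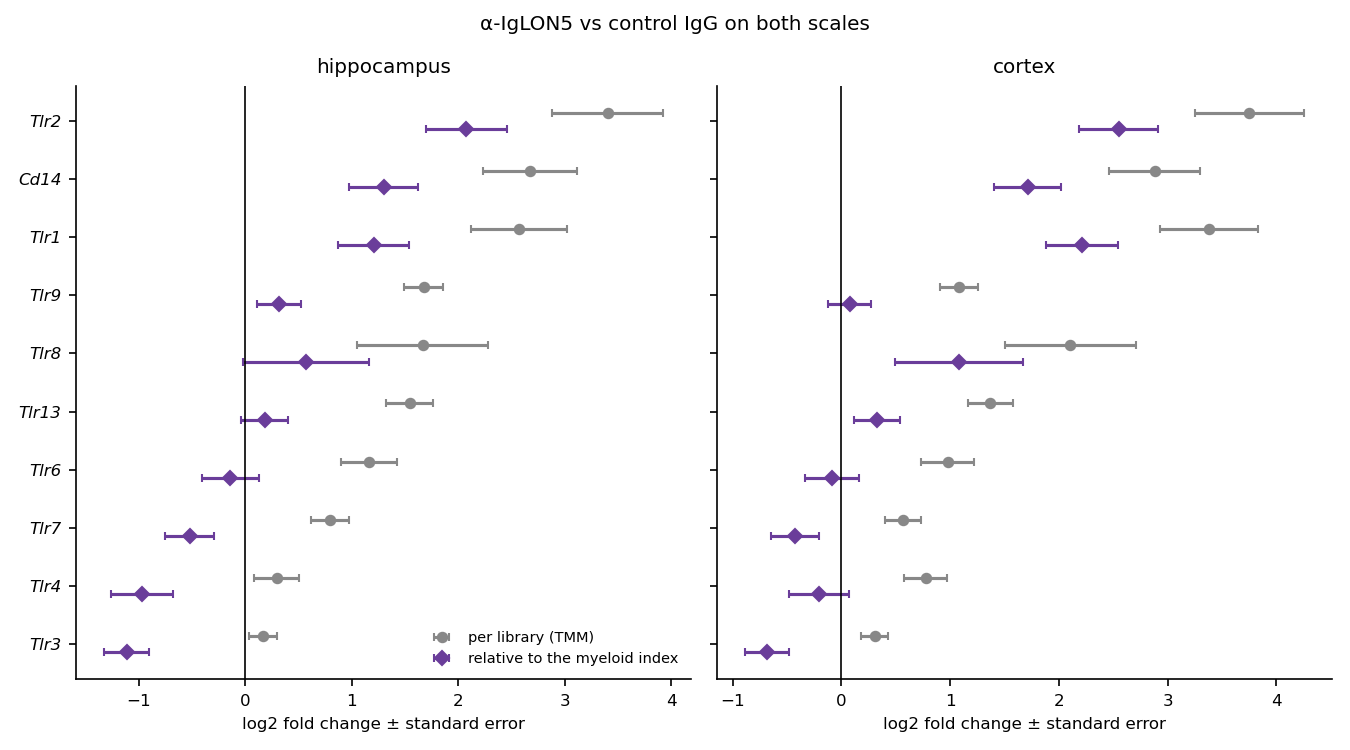
Log2 fold change with its standard error of each member, α-IgLON5 against control IgG, per library (grey circles) and relative to the myeloid index (purple diamonds), for hippocampus (left) and cortex (right). On the relative scale Tlr2, Cd14 and Tlr1 stay above 0 at 1.21 to 2.55, whereas Tlr6 lies at 0 within its error.

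Markers of other cells moved with the groups as well, and their part in the receptor values was not tested. Counts of called markers below cover the markers that passed the count filter in the control libraries alone, and summed levels cover each whole list. Of 4 such B cell markers, 3 rose in the hippocampus and 2 in the cortex, and the summed level of the list was 3.66 to 9.35 CPM in α-IgLON5 and 0.857 to 1.56 CPM in control IgG hippocampi and 2.38 to 7.64 and 0.970 to 1.36 CPM in the cortices. The markers Ms4a1, Camp, Ly6c2, Chil3, Tnfrsf17 and Cd3g passed the filter only with the α-IgLON5 libraries counted and are left out of these counts; Ms4a1 was at 0 to 51 counts in α-IgLON5 hippocampi and at 2 to 7 in control IgG hippocampi. Of 3 neutrophil and monocyte markers, 0 rose in the hippocampus and 1 in the cortex (summed level 3.15 to 19.8 against 1.82 to 5.40 CPM and 2.86 to 32.2 against 1.85 to 3.93 CPM), and the neutrophil marker Ly6g had at most 2 counts in any library. Of the 7 microglia markers, 3 rose in the hippocampus and 0 in the cortex, and of 6 markers of border macrophages none rose and Lyve1 fell in both tissues. Among 3 plasma cell markers, 2 rose in the hippocampus and 1 in the cortex (7.15 to 88.4 against 3.36 to 4.29 CPM and 7.40 to 35.1 against 2.88 to 3.79 CPM). Of 2 T cell markers, 1 rose in the hippocampus and 0 in the cortex (2.08 to 4.58 against 0.857 to 2.01 CPM and 2.35 to 4.05 against 0.998 to 1.65 CPM), and Cd3e had at most 14 counts. Gfap was the only one of 5 astrocyte markers that rose, in both tissues, and none of 5 neuronal and 4 endothelial markers was called.

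The genes whose level followed each member most closely were found by Pearson's r of log2 CPM over the 27 libraries, among 13601 genes. The libraries share their treatment groups, so these values describe the pattern and were not tested. Lcp1, an actin-bundling protein of leukocytes, was closest to both Tlr2 (r = 0.983) and Tlr1 (0.973), and Igsf6 was closest to Cd14 (0.980), followed by Lcp1 (0.979). Tlr13 was followed by Adgre1 (0.960), the macrophage antigen F4/80, Tlr9 by Dock2 (0.943), and Tlr6 by Spi1 (0.931), which encodes PU.1. Unc93b1, the chaperone of the endosomal receptors, was the third closest gene to Tlr9 (0.932). Tlr3 followed Ltbr (0.899), Tlr7 Man2b1 (0.879), Tlr4 Xdh (0.827) and Tlr8 Lsp1 (0.826), with lower values than for the other members.

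Other genes of the pathway were described by lists of their roles, again for α-IgLON5 against control IgG. Of the remaining Tlr genes, Tlr12 was called higher in the hippocampus (log2 fold change 1.54, SE 0.312, adjusted p = 0.00266). In the cortex it was not called (0.71, SE 0.296, unadjusted p = 0.0248, adjusted p = 0.230). Tlr5 was not called in either tissue, and the difference between the tissues was called for neither gene. Tlr11 had at most 5 counts and was not tested. Of 9 accessory genes, the same 3 rose in both tissues: Ly86 (log2 fold change 1.94 in the hippocampus and 1.36 in the cortex) and its partner Cd180 (1.90 and 1.5), which form a receptor complex related to that of Tlr4, and Unc93b1 (1.36 and 1.00). Unc93b1 was at 35.5 to 62.2 CPM in α-IgLON5 hippocampi against 16.2 to 19.8 CPM. Ly96, the subunit that binds lipopolysaccharide with Tlr4, was not called (0.23, adjusted p = 0.583, and 0.65, adjusted p = 0.108). The medians of this list were 0.14 and 0.65.

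Most adaptors and kinases did not pass the test. Of 14, 4 rose in the hippocampus and 3 in the cortex, led by the kinase Ikbke (log2 fold change 1.73 and 1.67), the adaptor Ticam2 (1.58 and 1.29) and the kinase Irak4 (0.65 and 0.77), and the list medians were 0.13 and 0.06. Myd88 itself was at 0.88 (SE 0.288, adjusted p = 0.0691) and 0.81 (SE 0.277, adjusted p = 0.114). Of 8 transcription factors, 4 rose in the hippocampus and 5 in the cortex, among them Irf7 (1.66 and 2.51), Nfkb2 (1.60 and 1.69) and Irf8 (1.38 and 0.92), with list medians of 0.74 and 0.72. Of 10 negative regulators, 2 rose in the hippocampus, Irak3 (1.65) and Atf3 (1.28, adjusted p = 0.0483), and 3 in the cortex, among them Irak3 (1.46), with list medians of 0.39 and 0.17. No gene of these lists fell in either tissue.

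Genes that receptor signalling is known to induce, such as cytokines and chemokines, formed the last list of 15, of which 11 were tested. Il6, Il12b, Cxcl2 and Ifnb1 did not pass the count filter. Of the 11, 6 (Tnf, Il1rn, Ccl3, Ccl4, Ccl5 and Acod1) passed it only with the α-IgLON5 libraries counted, so that a difference was built into their selection and they are described by their counts without a test. These counts are not scaled for depth, and every α-IgLON5 hippocampal library was shallower than every control IgG one. The chemokine Ccl3 was at 25 to 724 counts in α-IgLON5 hippocampi and at 7 to 9 counts in control IgG hippocampi. Its relative Ccl4 overlapped between the groups, with 2 to 240 against 4 to 6 counts in the hippocampus and 4 to 867 against 0 to 4 in the cortex. Ccl5 had 46 to 137 against 2 to 26 counts and 26 to 393 against 1 to 5, and Il1rn, the interleukin-1 receptor antagonist, 8 to 193 against 1 to 3 and 5 to 660 against 0 to 2. Tnf had 6 to 148 counts against 0 to 3 in the hippocampus and 5 to 440 against 0 to 1 in the cortex, and Acod1, the enzyme that makes itaconate, 14 to 418 against 0 to 2 and 8 to 1355 against 0 to 4. Among the 5 genes that also passed the filter in the control libraries, the same 3 rose in both tissues: the cytokine Il1b (log2 fold change 4.56, SE 1.00, adjusted p = 0.00559, and 4.76, SE 0.917, adjusted p = 0.00186), the chemokine Cxcl10 (4.91, SE 1.21, adjusted p = 0.0137, and 6.80, SE 1.33, adjusted p = 0.00214) and Nfkbiz, a nuclear regulator of NF-κB (1.16, adjusted p = 0.00203, and 1.09, adjusted p = 0.00252). In the hippocampus, Cxcl10 had 45 to 1758 counts with α-IgLON5 and 7 to 79 with control IgG, which overlapped in spite of its call. In the cortex it had 17 to 3243 against 2 to 15 counts, so it varied widely between the α-IgLON5 mice. Ptgs2 and Nos2 were not called in either tissue, and the median of the 5 genes was 1.16 in the hippocampus and 1.09 in the cortex. All 10 receptor members and all tested genes of the other pathway lists passed the count filter in the control libraries alone.

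**Figure D5:**
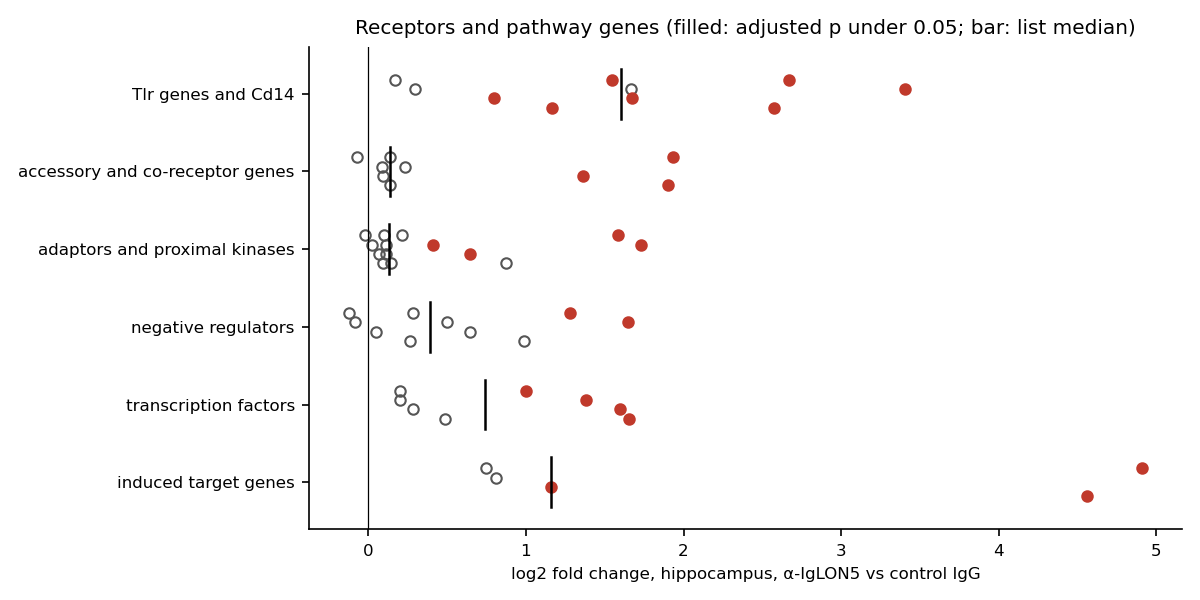
Log2 fold change in the hippocampus, α-IgLON5 against control IgG, of the receptor genes with Cd14 and of 5 lists of pathway genes; each point is a gene, filled points have an adjusted p under 0.05, and bars are list medians. The median is 1.61 for the receptor genes, 0.14 for accessory genes, 0.13 for adaptors and kinases and 1.16 for the 5 induced targets shown, those that passed the count filter in the control libraries alone.

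The mouse numbers limit the comparisons between groups. When only mice 8 to 17 were used, which leaves control IgG mice 10 and 15 in the hippocampus and 10, 11 and 15 in the cortex, the log2 fold changes stayed similar in size, such as 3.11 for Tlr2, 2.51 for Cd14 and 1.68 for Tlr9 in the hippocampus. With so few libraries, 1 member (Tlr9, adjusted p = 0.0397) was called in the hippocampus, where 0.277% of all 19528 genes tested in that fit were called higher, and 0 in the cortex (0.0512% of all genes), where Tlr2 had a log2 fold change of 3.62 (adjusted p = 0.0966).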

How the data were processed

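RNA was extracted from whole cortex and hippocampus, stranded mRNA libraries were sequenced in paired-end mode, and per the labels and the study's methods reads were aligned to GRCm38 with STAR. The authors deposited raw counts per gene and library without normalization; the counting program, annotation release and strand setting are not given in the sources used here. Total counts were 19385642 to 58550621 per library. Within a tissue each library came from a different mouse, if the title numbers are those of mice. The shared fit treated all 27 libraries as independent, although 13 mice gave both tissues. Its p-values therefore do not measure the spread between mice alone. The mouse entered only as the block in the tissue comparisons.

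Genes that reached 10 counts in 4 or more libraries were fitted in R 4.3.3 with edgeR 4.0.16 (TMM, quasi-likelihood F test, 6 groups of tissue and treatment, all 27 libraries), with Benjamini-Hochberg adjustment over 20271 genes. A gene was called at an adjusted p under 0.05 and was a DEG with a fold change above 2 as well. The study's methods used DESeq2, and edgeR replaced it as the main test for counts. DESeq2 1.42.0, other normalization, filters, groups and left-out libraries were alternatives. The myeloid index entered as an offset. A pair of genes was left out of the myeloid, microglia and B cell lists and is not reported here; this was done after the values were seen, and it ended the calls of hippocampal Tlr9 and cortical Tlr13 and added that of hippocampal Tlr7 relative to the index. CPM per kb used GENCODE M21 exon lengths. No library repeated another (48 pairs within groups, smallest chi-square per degree of freedom 4.82). Tissues of a mouse were paired by the number in the titles: the correlation of their deviations from the group means ran from -0.0498 to 0.443 over 13 mice (median 0.194) and was above 0.1 in 8. RefSeq promoter windows were searched for 7 of the 10 members, all but Tlr4, Tlr7 and Cd14. The test was checked on simulated counts. Members and lists were chosen with earlier results of these data known. All members are named where α-IgLON5 was compared with a control within a tissue, elsewhere the range and the members that stood out, and from each list the 3 called genes with the largest absolute log2 fold change in the hippocampus against control IgG; Tlr5, Ly96, Myd88, Il1b, Cxcl10, Nfkbiz, Ptgs2, Nos2 and the marker genes named singly were chosen after their values were seen.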

Additional observations from a re-analysis of the deposited data

Results flagged for a closer look

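In 4 of the 60 groups of 4 or 5 libraries that were examined for the 10 members, the highest or lowest library stood apart from the rest by the 95% limit of Dixon's test, and chance alone flags about 1 in 20 groups. Tlr2 was 2.41 CPM in the control IgG hippocampus of mouse 15, where the next value was 1.18 CPM. Tlr3 was 25.7 CPM in the α-IgLON5 hippocampus of mouse 8, where the next value was 19.6 CPM. Tlr6 was 0.467 CPM in the control IgG hippocampus of mouse 75, below the next value of 0.677 CPM, and Tlr7 was 4.82 CPM in the PBS cortex of mouse 38, above the next value of 4.11 CPM.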

How the results depend on the processing

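Of 1670 recomputed log2 fold changes of the members, 1538 kept their direction and their side of the threshold. Another 37 kept their direction and lost a call, 23 kept it and gained one, and 72 changed sign. With the microglia list as the index, some of these 72 also changed call. Hippocampal Tlr4 and Tlr7 and cortical Tlr3 lost theirs, and cortical Tlr4, Tlr6 and Tlr7 gained one. In the comparisons of α-IgLON5 with control IgG or PBS within a tissue, no member changed sign, and the count of members called moved by over 1.5 times only with mice 8 to 17, to 1 in the hippocampus and 0 in the cortex against control IgG. Between PBS cortex and hippocampus, 1 member (Tlr9) was called with only the groups compared, with the replicate block of the mouse, or without PBS hippocampus 33. Relative to the myeloid index, the cortical count of members called was 8, all higher, with the microglia list as the index, in place of 4, of which 3 were higher and 1 lower. The replicate block changed no other call of a tissue comparison, but with it the tissue difference against PBS of Tlr2 became 0.19 and that of Tlr6 0.012. With DESeq2, the cortical calls against control IgG also took in Tlr7 and Tlr8. Cortical Tlr7 was also called with only the groups compared (adjusted p = 0.0191), and cortical Tlr8 without the count filter (adjusted p = 0.0366). The cause of these changes was not tested.

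Sign changes were as follows. Without a count filter, the tissue difference of Cd14 against PBS was -0.0056. Cortical Tlr8, control IgG against PBS, was 0.00057 with DESeq2's size factors and 0.0015 with only the groups compared. With the microglia list as the index, hippocampal Tlr4 (0.039), Tlr6 (0.92) and Tlr7 (0.47) and cortical Tlr3 (0.42), Tlr4 (0.86), Tlr6 (1.11) and Tlr7 (0.64) turned positive. With each library left out in turn, control IgG against PBS ranged in the hippocampus from -0.0050 to 0.53 for Tlr2, -0.11 to 0.10 for Tlr6 and -0.15 to 0.0074 for Tlr9, and in the cortex from -0.13 to 0.32 for Tlr1, -0.018 to 0.21 for Tlr2, -0.30 to 0.046 for Tlr4, -0.20 to 0.22 for Tlr8 and -0.11 to 0.050 for Tlr13. The tissue difference against control IgG ranged from -0.79 to 0.46 for Tlr2, -0.26 to 0.055 for Tlr3, -0.0051 to 0.49 for Tlr6, -1.0 to 0.35 for Tlr8, -0.063 to 0.31 for Tlr13 and -0.53 to 0.65 for Cd14. Against PBS it ranged from -0.49 to 0.75 for Tlr2, -0.18 to 0.13 for Tlr3, -0.26 to 0.088 for Tlr4, -0.25 to 0.25 for Tlr6 and -0.26 to 0.91 for Cd14. PBS cortex against hippocampus ranged from -0.13 to 0.038 for Tlr2, -0.14 to 0.20 for Tlr4, -0.12 to 0.093 for Tlr6 and -0.035 to 0.20 for Cd14. Relative to the myeloid index, Tlr6 ranged from -0.28 to 0.0030 in the hippocampus and Tlr9 from -0.034 to 0.18 in the cortex.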
